A study of Homo sapiens with 80 samples.

Results

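Bone cells make a collagen matrix, mineralise it and tell osteoclasts, the cells that resorb bone, how active to be, and 10 genes of these tasks were followed here through 5 forms of the glucocorticoid receptor (GR). The genes were DCN, SPARC and SPP1, which code for matrix proteins, ALPL and FAM20C, which code for enzymes of mineralisation, and PTH1R, TNFRSF11B, BMP2, BMP4 and MSX2, which act in bone signalling. A member was measured by every probe annotated to it (PTH1R under its older symbol PTHR1) that was detected, at a detection p under 0.05, on at least 4 of the 80 arrays. On these terms 9 of the 10 genes were measured, by 12 probes, out of 12547 genes and 15392 probes in all. SPARC had no annotated probe and was not analysed here. BMP4, SPP1 and FAM20C had 2 probes each, and each gene is given by its brightest probe unless the other is named. The second probe of DCN was detected on 0 of 80 arrays.

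The cells were U2OS, which come from a human bone tumour and have little GR themselves, made to express 1 receptor allele each. GRalpha is the common form, and GRgamma is a splice form with an added residue in the DNA-binding domain. A477T carries a change in the surface through which receptors pair on DNA, 30iiB is altered in the activation domain near the N-terminus, and E773R carries a change in the activation surface of the hormone-binding domain. Each allele was given 100 nM dexamethasone, a synthetic glucocorticoid, for 2, 4 or 24 h, or the ethanol vehicle alone for 4 h, called 0 h here, with 4 biological replicates in each of the 20 groups. The labels do not say whether a line was 1 clone or a pool. Alleles are compared between different lines, so a difference between alleles below cannot be told apart from a difference between their lines. Only the 4 h arrays are matched in time to the vehicle. No vehicle culture of 2 h or 24 h was measured, so at those times the hormone and time in culture cannot be told apart. Levels are log2 intensities after background correction and quantile normalisation, and they are not compared between genes.

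The glucocorticoid receptor is a transcription factor that enters the nucleus when it binds hormone, and in bone it restrains osteoblasts, the matrix-forming cells, which is the basis of bone loss under glucocorticoid therapy. The hormone acts there partly through the balance of osteoprotegerin, the decoy receptor coded by TNFRSF11B, with the osteoclast-activating ligand that it captures. Bone morphogenetic proteins (BMPs) drive cells towards the osteoblast fate, and parathyroid hormone acts on osteoblasts through the receptor coded by PTH1R.

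The number of detected probes per array ran from 12233 to 17333 (median 15597), and the number of arrays limits the precision. Of the osteoblast markers, RUNX2 and COL1A1 were detected on 80 of 80 arrays, but COL1A2 was detected on 16, IBSP on 20, SP7 on 1 and DLX5 on 0. All 5 mesenchymal markers were detected, on 79 or 80 arrays each. Markers of other lineages were also seen. Of the adipocyte list PPARG was detected on 80 arrays, LPL on 79, CEBPA on 72, CIDEC on 55, FABP4 on 35 and PLIN1 on 2. In the chondrocyte list SOX9 and MATN3 were on 80, COL2A1 on 69, ACAN on 23 and COL10A1 and COMP on 0. Of the epithelial list EPCAM was on 71, KRT14 on 58, CDH1 on 49, KRT5 on 9 and KRT19 on 0, and of the blood list SPI1 was on 28, PTPRC on 18, CD14 on 16 and CD3E on 0. Summed marker signal was taken from raw intensities, before background correction and normalisation. Over the 20 groups its mean ran from 7500 to 28900 for the osteoblast list, 19300 to 67200 for the mesenchymal list and 1820 to 6780 for the adipocyte list. It ran from 2500 to 7980 for the chondrocyte list, 586 to 1510 for the epithelial list and 404 to 686 for the blood list. The median raw intensity of an array itself ran from 82 to 925.75, so these ranges do not show that marker expression differed between groups. The part of these markers in the results below was not tested. The arrays lay on 10 slides of 8 arrays, and no slide held 2 arrays of the same group. Arrays of other groups on the same slide deviated together (mean correlation 0.32, against -0.03 on other slides), so a fit that holds slide as a block (the slide-blocked fit) is given beside each result of a member's brightest probe whose call it changes.

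Changes below are log2 differences with the standard error of a limma model, and a probe was called where the p adjusted over all 15392 probes (Benjamini-Hochberg) was under 0.05. The members were chosen with earlier results of these data known, so their counts beside the share of all probes do not test whether they respond more often. In GRalpha cells 2 of the 9 genes were called at 2 h, both higher, against 1.62% of all probes (1.18% higher and 0.435% lower). At 4 h 4 were called, 3 higher and 1 lower, against 4.42% of all probes (2.62% higher and 1.8% lower). At 24 h 6 were called, 3 in each direction, against 16.4% (7.92% higher and 8.5% lower). The median change of the 9 genes was 0.39, 0.67 and 0.01 at these times, and that of all probes was -0.01, -0.03 and -0.02. The GRgamma cells had 2 calls at 2 h (1.52% of all probes), 5 at 4 h (3.83%) and 6 at 24 h (16.3%). The 30iiB cells had 2 calls at 2 h (2.12%), 5 at 4 h (3.93%) and 8 at 24 h (15.3%).

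Fewer of the genes were called in the other alleles. The A477T cells had 0 calls by limma at 2 h (1.6% of all probes, with 2 of the 9 genes at an unadjusted p under 0.05), 1 at 4 h (3.03%) and 3 at 24 h (8.54%). The E773R cells had 0 at 2 h (0.318%, with 2 genes at an unadjusted p under 0.05), 2 at 4 h (1%) and 3 at 24 h (5.2%). One of those genes was MSX2, whose 2 h change in E773R (1.79, adjusted p = 0.056) was called in the slide-blocked fit (1.92, adjusted p = 0.00071). Over all 15 responses, PTH1R was called higher 10 times, MSX2 8 times, DCN and FAM20C 4 times each and ALPL 3 times. TNFRSF11B was called lower 8 times, BMP4 7 times, SPP1 3 times and BMP2 2 times. No member was called in opposite directions in different alleles. The 3 responses of an allele share its 0 h arrays. As these are levels in whole cultures, fewer cells that make an mRNA and less of it per cell cannot be told apart.

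**Figure D1:**
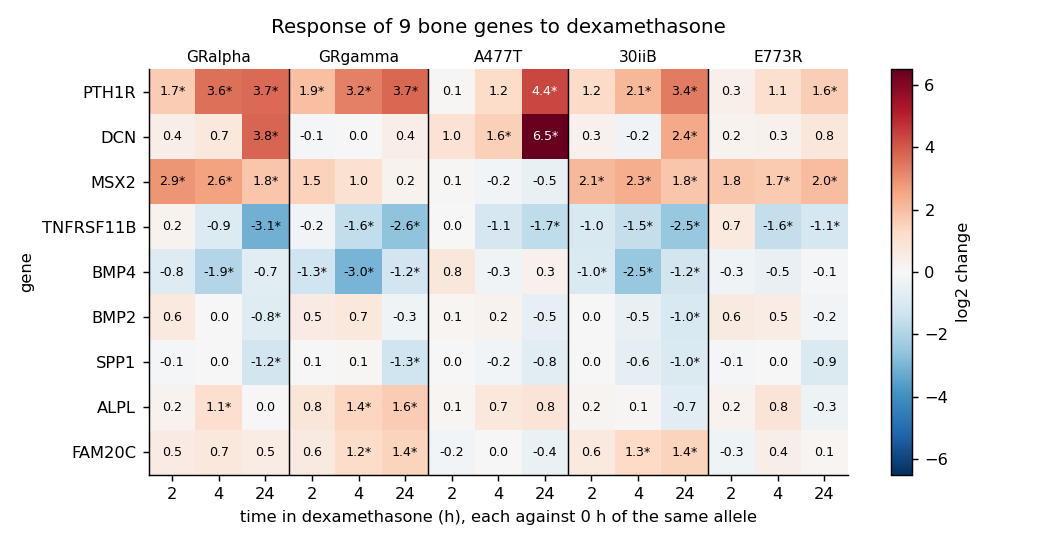
Log2 change of each of 9 bone genes (rows) at 2, 4 and 24 h of dexamethasone against 0 h of the same allele (columns), with asterisks at adjusted p under 0.05 (limma, n = 4 arrays a group) and colour from blue (lower) to red (higher). DCN at 24 h in A477T is the deepest red at 6.45, PTH1R is red in all 5 alleles at 24 h, TNFRSF11B is blue in all 5 at 24 h and BMP4 is deepest blue at 4 h in GRgamma.

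Promoter sequence was available for 6 of the measured genes, in 11 windows from RefSeq (GRCh38.p14) that run from 250 bases before a gene's start to 50 after it. PTH1R had 2 windows, BMP4 and ALPL 3 each, and the others 1. For PTH1R and BMP4 the window shown is the 1 that holds the marked letters, and the other windows of these genes held a GC box and none of the other motifs. The bases before the start are shown for 4 genes that moved in several alleles: PTH1R and MSX2, which rose, and BMP4 and SPP1, which fell. The PTH1R stretch lies at chr3:46877471-46877720 on the plus strand, MSX2 at chr5:174724332-174724581 on the plus strand, BMP4 at chr14:53954489-53954738 on the minus strand and SPP1 at chr4:87975464-87975713 on the plus strand. All are written 5′ to 3′ on the gene's strand. Capitals mark an AP-1 motif (TGAGTCA) in PTH1R, 2 CCAAT boxes in MSX2 and a RUNX motif (TGTGGT) in BMP4 and SPP1, each searched on both strands.
PTH1R: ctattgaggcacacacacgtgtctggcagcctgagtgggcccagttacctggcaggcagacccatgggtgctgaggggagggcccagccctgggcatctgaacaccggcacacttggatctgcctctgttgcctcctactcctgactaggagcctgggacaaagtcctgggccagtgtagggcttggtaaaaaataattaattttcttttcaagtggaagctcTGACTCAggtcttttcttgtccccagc
MSX2: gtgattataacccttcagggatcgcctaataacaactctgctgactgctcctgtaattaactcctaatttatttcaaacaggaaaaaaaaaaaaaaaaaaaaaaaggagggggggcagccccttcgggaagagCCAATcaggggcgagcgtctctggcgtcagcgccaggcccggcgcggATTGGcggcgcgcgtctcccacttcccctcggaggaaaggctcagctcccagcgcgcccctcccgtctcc
BMP4: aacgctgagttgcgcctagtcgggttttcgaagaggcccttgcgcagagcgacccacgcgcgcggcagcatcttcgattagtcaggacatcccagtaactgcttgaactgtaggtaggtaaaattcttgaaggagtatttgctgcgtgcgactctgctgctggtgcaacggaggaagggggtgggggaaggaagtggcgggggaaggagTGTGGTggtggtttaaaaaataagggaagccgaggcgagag
SPP1: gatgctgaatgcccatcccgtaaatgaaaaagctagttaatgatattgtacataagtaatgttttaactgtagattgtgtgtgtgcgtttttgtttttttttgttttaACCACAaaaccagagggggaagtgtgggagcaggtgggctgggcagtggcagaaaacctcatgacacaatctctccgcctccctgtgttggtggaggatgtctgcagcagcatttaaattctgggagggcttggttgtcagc

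The AP-1 letters began 27 bases before the start of the PTH1R window shown and were in 4.95% of all 35116 windows of the table. The RUNX letters began 41 bases before the start in the BMP4 window shown and 142 before that of SPP1 and were in 13.1% of all windows. The CCAAT letters of MSX2 were in 34.6% of all windows and also in the FAM20C window. The half-site bound by GR (AGAACA) was in 0 of the 11 windows, against 14.8% of all windows. Its palindrome (AGAACA, any 3 bases, TGTTCT) was in 0 of the 11 and in 0.00285% of all. A TATA box (TATAAA) was in 1 ALPL window (11.5% of all) and a GC box (GGGCGG) was in 5 windows, of ALPL, BMP4, FAM20C and PTH1R (45% of all). These matches only describe letters. GR is known to act from sites far from gene starts, which these windows do not cover.

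DCN codes for decorin, a small proteoglycan that binds collagen fibrils and growth factors, and its mRNA rose late, in some alleles and not in others. In A477T cells probe ILMN_2347145 stood at 5.73, 6.81, 7.43 and 6.11 at 0 h, with 3 of 4 detected, and at 13.03, 12.71, 12.79 and 13.33 at 24 h. All 4 arrays at 24 h were above all 4 at 0 h, by 6.45 in log2 (SE 0.39, 87.2-fold, adjusted p = 2.3e-22), which was the largest change of any member in any response. In GRalpha the arrays read 5.09, 4.99, 5.37 and 5.47 at 0 h, with 1 of 4 detected, and 9.23, 9.8, 8.45 and 8.54 at 24 h, a rise of 3.78 (SE 0.39, adjusted p = 1.7e-12). The 30iiB arrays went from 5.43, 6.62, 6.62 and 7.55 to 9.92, 8.79, 8.65 and 8.63, a rise of 2.44 (SE 0.39, adjusted p = 7.8e-07). In all 3 alleles the groups did not overlap. These rises rest on 1 probe. The second DCN probe, ILMN_1683194, was detected on 0 of 80 arrays, those of A477T at 24 h included, and the reason was not tested.

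In the other two alleles DCN stayed low. In GRgamma it was detected on 0 of 4 arrays at each of 0, 2 and 4 h and on 1 of 4 at 24 h, where the arrays read 6.09, 5.81, 5.11 and 5.67, so no fold is given. In E773R it read 5.57, 5.92, 5.92 and 5.85 at 0 h and 6.97, 6.22, 5.67 and 7.44 at 24 h, and the groups overlapped (0.76, SE 0.39, adjusted p = 0.39). At 24 h the order of the levels was A477T (12.97 ± 0.28, SD, n = 4), GRalpha (9.01 ± 0.64), 30iiB (9 ± 0.62), E773R (6.58 ± 0.79) and GRgamma (5.67 ± 0.41). The arrays of GRalpha and 30iiB overlapped, as did those of E773R and GRgamma, whereas A477T lay above every other array. At 0 h DCN stood at 6.52 ± 0.75 in A477T and 6.55 ± 0.87 in 30iiB, which were 1.29 and 1.33 above GRalpha without being called (adjusted p = 0.06 and 0.068), although both were called with arrays scaled to equal medians in place of quantiles (median scaling) (1.73 and 1.68, adjusted p = 0.016 and 0.028).

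The DCN change from 0 h to 24 h differed from that of GRalpha in 3 of the 4 other alleles. It was larger in A477T by 2.67 (SE 0.55, adjusted p = 0.00038), and smaller in GRgamma, at -3.37 (SE 0.55, adjusted p = 1.3e-05), and in E773R, at -3.01 (SE 0.55, adjusted p = 0.00018). Since DCN was not detected in GRgamma at 0 h, its change there, and so that difference, is only roughly measured. The 30iiB difference was -1.33, with a 95% interval from -2.43 to -0.24 before adjustment (adjusted p = 1). At 2 and 4 h 0 of 8 differences of DCN were called. Most of the rise came after 4 h: against the 4 h arrays, DCN at 24 h was higher by 4.87 in A477T, 3.11 in GRalpha and 2.66 in 30iiB (SE 0.39 each, adjusted p = 8.8e-16, 3e-09 and 2.2e-07). The A477T level already rose by 1.57 at 4 h (adjusted p = 0.0069), which without A477T 0 h replicate 1 was 1.31 and not called (adjusted p = 0.081). That call was also lost with median scaling (1.29, adjusted p = 0.14) and with only the groups compared (adjusted p = 0.054). Within slides that held both groups, the 24 h rise ran from 5.89 to 6.69 on 2 slides in A477T, 3.45 to 4.34 on 3 in GRalpha and 1.1 to 3.31 on 3 in 30iiB.

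PTH1R, the receptor for parathyroid hormone and its related peptide, rose by 24 h in all 5 alleles. At 0 h it was detected on 2 of 4 arrays in GRalpha and in E773R, 3 in 30iiB, 1 in A477T and 0 in GRgamma, so the sizes of its rises are only roughly measured. In GRalpha, probe ILMN_1795166 stood at 5.94, 5.21, 5.17 and 5.69 at 0 h, at 7.51, 7.94, 7.09 and 6.16 at 2 h, at 9, 9.22, 9 and 9.03 at 4 h and at 8.44, 8.8, 9.84 and 9.63 at 24 h. The rises were 1.67, 3.56 and 3.68 (SE 0.36, adjusted p = 0.0021, 6.7e-12 and 4.6e-13), each without overlap with 0 h. The 2 h call was lost when only the groups compared were fitted (adjusted p = 0.16). The level at 24 h did not differ from that at 4 h by the test (0.12, adjusted p = 0.94). In GRgamma PTH1R was detected on 0 of 4 arrays at 0 h and on 4 of 4 at later times, and it rose at least 2.77-fold, 6.83-fold and 9.46-fold at 2, 4 and 24 h (adjusted p = 0.00024, 2.2e-10 and 4.5e-13).

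In A477T the PTH1R rise came late. The 4 arrays read 5.47, 5.26, 6.14 and 5.46 at 0 h, with 1 of 4 detected, and 5.39, 5.71, 5.63 and 6.01 at 2 h, which overlapped. At 4 h they read 8.06, 5.45, 6.8 and 6.79, still overlapping 0 h (1.19, adjusted p = 0.054, and 1.22 with adjusted p = 0.024 in the slide-blocked fit). At 24 h they read 9.68, 10.02, 9.96 and 10.12, above every array of the earlier times, for a rise of 4.36 (SE 0.36, adjusted p = 9.8e-16), of which 3.17 came after 4 h (adjusted p = 5.5e-10). The 30iiB level rose from 5.89 ± 0.61 to 7.13 ± 0.36, 8.04 ± 0.08 and 9.28 ± 0.28 (SD, n = 4). Its changes were 1.23 at 2 h (adjusted p = 0.055, and 1.47 with adjusted p = 0.0087 in the slide-blocked fit), 2.14 at 4 h (adjusted p = 1.3e-05) and 3.39 at 24 h (adjusted p = 9.7e-12). The 30iiB step from 4 to 24 h (1.25, adjusted p = 0.014) lost its call in the slide-blocked fit (0.89, adjusted p = 0.084) and without 30iiB 24 h replicate 2 (1.14, adjusted p = 0.054).

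E773R gave the smallest PTH1R rise. Its arrays read 5.43, 5.92, 5.33 and 5.92 at 0 h and 6.58, 7.73, 6.69 and 7.97 at 24 h, without overlap, a rise of 1.59 (SE 0.36, adjusted p = 0.0018). At 4 h E773R stood at 6.7 ± 0.56 (1.05, adjusted p = 0.22). The response was smaller than in GRalpha by 2.51 at 4 h and by 2.09 at 24 h, given as -2.51 (SE 0.51, adjusted p = 0.0042) and -2.09 (SE 0.51, adjusted p = 0.012). The 24 h difference lost its call without GRalpha 24 h replicate 3 (-1.87, adjusted p = 0.06) or E773R 24 h replicate 1 (-1.87, adjusted p = 0.057) or replicate 3 (-1.9, adjusted p = 0.05). The A477T response was smaller at 4 h (-2.37, SE 0.51, adjusted p = 0.0029), while at 24 h the difference was 0.68 (95% interval -0.34 to 1.71). For GRgamma at 24 h the difference was 0.04, with an interval from -0.98 to 1.07. At 24 h the order of the levels was A477T (9.95 ± 0.19), 30iiB (9.28 ± 0.28), GRalpha (9.18 ± 0.67), GRgamma (9.18 ± 0.43) and E773R (7.24 ± 0.71), and the arrays of the middle 3 overlapped, as did those of A477T with GRalpha. Within slides that held both groups, the 24 h rise ran from 3.11 to 4.64 on 3 slides in GRalpha, 3.99 to 4.5 on 2 in A477T and 0.66 to 1.26 on 2 in E773R.

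MSX2 codes for a homeobox factor that acts downstream of BMPs in bone and skull, and it rose in GRalpha, 30iiB and E773R. In GRalpha probe ILMN_1766951 stood at 6.96, 6.93, 6.57 and 6.57 at 0 h and at 8.9, 9.4, 9.77 and 10.34 at 2 h. The rise was 2.85 (SE 0.45, 7.19-fold, adjusted p = 7.4e-06), without overlap, and MSX2 stood 2.6 above 0 h at 4 h (adjusted p = 2e-05) and 1.8 above it at 24 h (adjusted p = 0.002). MSX2 and PTH1R were the 2 genes called at 2 h in GRalpha. In A477T the 0 h arrays read 6.99, 6.44, 5.85 and 6.28, and the 2 h arrays 6.62, 5.99, 6.38 and 6.91. The A477T changes were 0.09, -0.2 and -0.48 at 2, 4 and 24 h, with overlap at each time (adjusted p = 0.98, 0.99 and 0.73). MSX2 was detected on 3 of 4 arrays in A477T at 0, 4 and 24 h, in 30iiB at 0 h, and in E773R at 0 and 4 h. The sizes of the changes in these alleles are therefore only roughly measured.

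The MSX2 response of A477T was smaller than that of GRalpha at all 3 times, by -2.76, -2.8 and -2.28 (SE 0.64, adjusted p = 0.016, 0.0061 and 0.018). The 2 h call was lost without A477T 0 h replicate 1 (-2.56, adjusted p = 0.064), A477T 2 h replicate 2 (-2.6, adjusted p = 0.056) or GRalpha 2 h replicate 4 (-2.51, adjusted p = 0.073), and the 24 h call without A477T 0 h replicate 1 (-2.08, adjusted p = 0.06) and with no background correction (-1.26, adjusted p = 0.057). In 30iiB MSX2 rose by 2.1, 2.34 and 1.8 (SE 0.45, adjusted p = 0.0019, 0.00015 and 0.002), with the 2 h call lost when only the groups compared were fitted (adjusted p = 0.087). In E773R the arrays went from 7.06, 6.69, 5.06 and 6.25 at 0 h to 8.13, 8.85, 8.92 and 7.13 at 24 h, a rise of 1.99 (adjusted p = 0.0017) without overlap. The E773R rise at 4 h (1.7, adjusted p = 0.041) lost its call without any of 5 arrays, among them E773R 0 h replicate 3 (1.29, adjusted p = 0.41). It also lost it with median scaling (1.53, adjusted p = 0.17), with no background correction (0.91, adjusted p = 0.14), with no detection filter (adjusted p = 0.05) and with only the groups compared (adjusted p = 0.75). In GRgamma MSX2 moved by 1.48, 0.97 and 0.22 without a call (adjusted p = 0.095, 0.35 and 0.82), although the 2 h change was called in the slide-blocked fit (1.22, adjusted p = 0.048), as was the smaller GRgamma response at 24 h (-1.59 with adjusted p = 0.38, and -1.64 with adjusted p = 0.045 in the block). At 0 h 0 of 4 alleles differed from GRalpha in MSX2 by the test, with differences from -0.49 to -0.16.

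**Figure D2:**
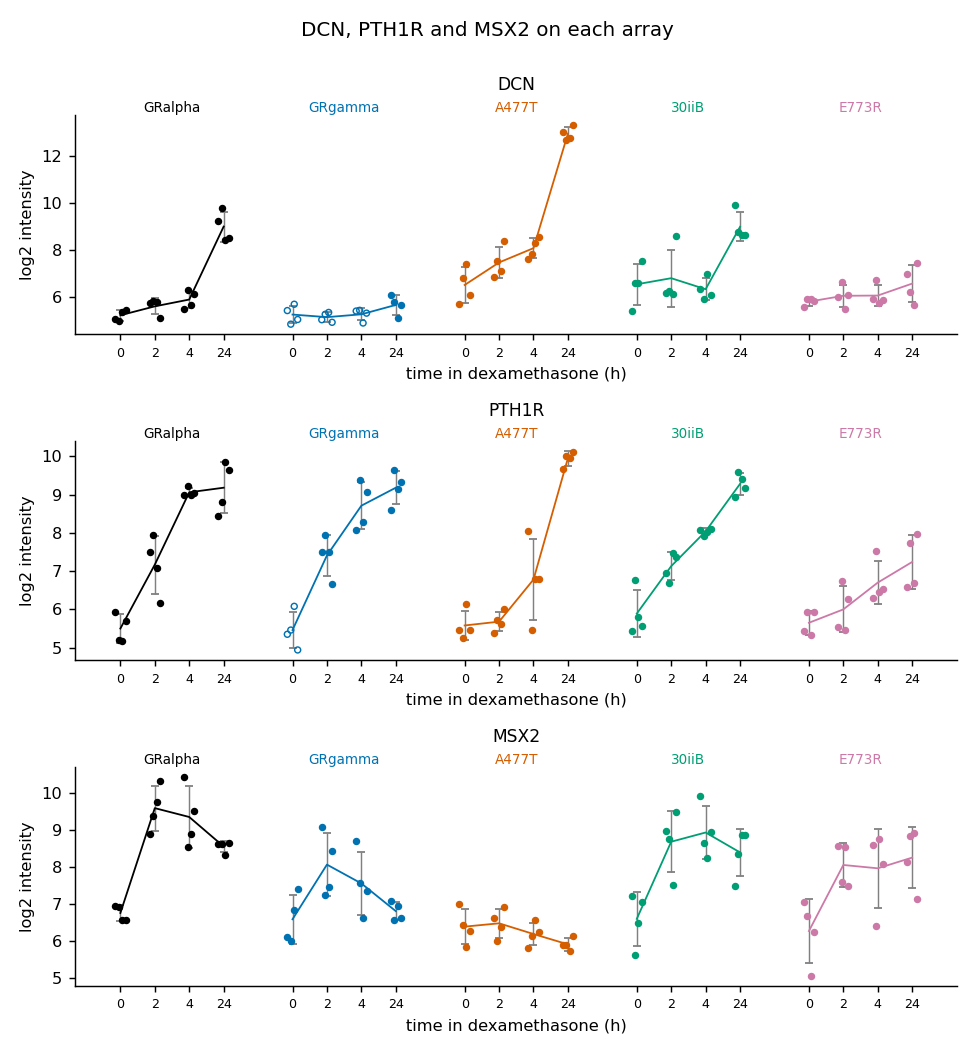
Log2 intensity of DCN, PTH1R and MSX2 (panels) on each of the 80 arrays (points), by allele (colour) and time in dexamethasone (the time axis is in steps, not to scale), with group means joined by lines and grey bars for the SD of 4 arrays. Open points mark groups in which the probe was detected on 0 of 4 arrays. DCN climbs to about 12.97 in A477T at 24 h and stays flat in GRgamma, PTH1R climbs in all 5 alleles, and MSX2 stays flat in A477T.

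TNFRSF11B fell in all 5 alleles by 24 h. In GRalpha probe ILMN_1676663 stood at 9.59, 11.51, 9.66 and 10.27 at 0 h and at 6.91, 7.26, 7.33 and 6.96 at 24 h. The groups did not overlap, and the fall was -3.14 (SE 0.36, 8.84-fold, adjusted p = 1e-10), with -2.26 of it from 4 to 24 h (adjusted p = 2.1e-06). The falls at 24 h in GRgamma, 30iiB and A477T were -2.59, -2.46 and -1.66 (SE 0.36, adjusted p = 4.6e-08, 1.3e-07 and 0.00061), none with overlap. In GRgamma the 24 h arrays read 6.18, 5.75, 5.58 and 6.37, with 2 of 4 detected. In E773R the arrays went from 8.58, 7.81, 8.77 and 9.05 to 7.52, 7.06, 7.44 and 7.59, a fall of -1.15 (adjusted p = 0.045) whose call was lost without any of 7 arrays, with adjusted p between 0.066 and 0.18. It was also lost with median scaling (-1.09, adjusted p = 0.12), without background correction (-0.75, adjusted p = 0.086) and with no detection filter (adjusted p = 0.056).

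TNFRSF11B was already called lower at 4 h in 3 alleles. The changes were -1.61 in GRgamma (adjusted p = 0.0018), -1.54 in 30iiB (adjusted p = 0.0031) and -1.56 in E773R (adjusted p = 0.011). In E773R the 4 h mean (7 ± 1.07) lay below the 24 h mean. The E773R value was -1.03 without E773R 4 h replicate 2 (adjusted p = 0.4), on which the probe read 5.41 and was not detected. Its call was also lost without E773R 0 h replicate 3 or 4 (adjusted p = 0.055 and 0.073), with array weights (-0.93, adjusted p = 0.059), without background correction (-0.91, adjusted p = 0.081), with median scaling (-1.18, adjusted p = 0.34) and with only the groups compared (adjusted p = 0.71). The changes at 4 h were -0.88 in GRalpha (adjusted p = 0.23) and -1.07 in A477T (adjusted p = 0.12, and -1.12 with adjusted p = 0.045 in the slide-blocked fit). At 4 h 0 of 4 differences from GRalpha in this response were called. At 24 h the E773R fall was smaller than that of GRalpha by 2 (SE 0.51, adjusted p = 0.02). It was not called when GRalpha 0 h replicate 2 (1.58, adjusted p = 0.13) or E773R 0 h replicate 2 (1.75, adjusted p = 0.087) was left out, or when the fit held only the groups compared (adjusted p = 0.057). For A477T that difference was 1.48 (adjusted p = 0.094, and 1.53 with adjusted p = 0.042 in the slide-blocked fit).

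The alleles did not start from the same TNFRSF11B level. At 0 h GRalpha stood at 10.26 ± 0.89 (SD, n = 4), 30iiB at 9.56 ± 0.73, A477T at 9 ± 0.14, GRgamma at 8.56 ± 0.19 and E773R at 8.55 ± 0.53. Against GRalpha, E773R was at -1.71, GRgamma at -1.7 and A477T at -1.26 (SE 0.36, adjusted p = 0.0049, 0.0061 and 0.044), with no overlap. All 3 calls were lost without GRalpha 0 h replicate 2, the array at 11.51 (-1.29, -1.28 and -0.84, adjusted p = 0.15, 0.18 and 0.27), and when the fit held only the groups compared (adjusted p = 0.35, 0.3 and 0.099). The A477T call was also lost without any single A477T 0 h array (adjusted p between 0.081 and 0.13), without GRalpha 0 h replicate 4 (adjusted p = 0.12) and with no detection filter (adjusted p = 0.054), and the E773R call without E773R 0 h replicate 2 (-1.46, adjusted p = 0.068). At 24 h the levels lay closer together, at 7.12 ± 0.21 in GRalpha, 7.09 ± 0.42 in 30iiB, 7.34 ± 0.13 in A477T and 7.4 ± 0.23 in E773R, whose arrays overlapped, and 5.97 ± 0.37 in GRgamma. The 24 h falls within slides ran from -4.18 to -2.63 on 3 slides in GRalpha, and from -2.81 to -1.68 on 3 in 30iiB.

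BMP4, a secreted BMP, dipped at 4 h in GRalpha, GRgamma and 30iiB, and on its brighter probe it partly returned by 24 h. Probe ILMN_1740900 in GRgamma stood at 12.26, 11.75, 11.86 and 12.01 at 0 h, at 9.25, 8.9, 8.91 and 8.77 at 4 h and at 10.97, 10.85, 10.69 and 10.36 at 24 h. The 3 sets did not overlap, with a change of -3.01 at 4 h (SE 0.28, 8.05-fold, adjusted p = 1.8e-13) and a return of 1.76 from 4 to 24 h (adjusted p = 2e-06). In 30iiB the 4 h change was -2.46 (adjusted p = 1.8e-10) and the return 1.26 (adjusted p = 0.00056). In GRalpha the arrays went from 11.44, 13.14, 12.13 and 12.35 to 10.5, 10.35, 10.33 and 10.21, a change of -1.92 (SE 0.28, adjusted p = 2.6e-07), with a return of 1.23 (adjusted p = 0.00082). BMP4 was already lower at 2 h in GRgamma (-1.29, adjusted p = 0.0022), but not by the test with median scaling (-0.93, adjusted p = 0.38), a setting in which the GRgamma call at 24 h was lost too (-0.95, adjusted p = 0.089). At 2 h in 30iiB it was at -0.96 (adjusted p = 0.042), a call lost in the slide-blocked fit (-0.93, adjusted p = 0.1), with slide as a random block (adjusted p = 0.05), with only the groups compared (adjusted p = 0.64) and without any of 6 arrays, the value being -0.68 without 30iiB 0 h replicate 4.

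In A477T and E773R BMP4 was called at 0 of 3 times. The A477T arrays read 11.47, 11.45, 12.05 and 11.53 at 0 h and 11.91, 11.4, 11.09 and 10.98 at 4 h, which overlapped (-0.28, adjusted p = 0.93), and the E773R change at 4 h was -0.5 (adjusted p = 0.49). The A477T response lay above that of GRalpha by 1.59 at 2 h (SE 0.39, adjusted p = 0.03) and 1.63 at 4 h (SE 0.39, adjusted p = 0.0097). The 2 h difference lost its call in the slide-blocked fit (1.61, adjusted p = 0.079), with the authors' deposited series matrix values (1.19, adjusted p = 0.094), with median scaling (1.43, adjusted p = 0.76), with only the groups compared (adjusted p = 0.58) and without any of 9 arrays. The 4 h difference lost its call without GRalpha 0 h replicate 2 (1.34, adjusted p = 0.071), with median scaling (1.35, adjusted p = 0.59) and with only the groups compared (adjusted p = 0.085).

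The dimmer BMP4 probe, ILMN_1709734, also fell at 4 h in GRalpha (-1.78, adjusted p = 0.013, with overlap) and 30iiB (-2.46, adjusted p = 0.00017), and fell at least 4.51-fold in GRgamma, where it was detected on 0 of 4 arrays (adjusted p = 2.2e-05). Its shift from 4 to 24 h was not called, at 0.18 in GRalpha, 0.7 in GRgamma and 0.1 in 30iiB (adjusted p = 0.93, 0.5 and 0.94), so the return of BMP4 rests on 1 probe. In GRalpha at 24 h the probes therefore gave different calls, -1.6 (adjusted p = 0.012) on the dimmer and -0.69 (adjusted p = 0.08) on the brighter. The dimmer probe gave 0.7 for the A477T difference at 4 h (adjusted p = 0.94) and 1.01 at 2 h (adjusted p = 0.96), so the 2 called differences of BMP4 rest on 1 probe. Its 0 h arrays in GRalpha were spread from 6.72 to 9.59.

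BMP2, a related BMP ligand that drives bone formation, fell at 24 h in 2 alleles. Probe ILMN_1722718 went in GRalpha from 8.47, 8.66, 8.21 and 7.94 at 0 h to 7.45, 7.74, 7.47 and 7.38 at 24 h, a fall of -0.81 (SE 0.28, adjusted p = 0.034) without overlap. In 30iiB the fall was -0.99 (adjusted p = 0.0069), also without overlap. The GRalpha call was lost without any of 5 arrays, with values from -0.8 to -0.7, and with no background correction (-0.52, adjusted p = 0.074). From 4 to 24 h BMP2 fell by 0.97 in GRgamma (adjusted p = 0.016), where GRgamma 4 h replicate 3 stood at 9.98 and the other 3 arrays of its group between 8.74 and 8.95. Without that array the value was -0.68 (adjusted p = 0.19), and the call was also lost without GRgamma 24 h replicate 3 (adjusted p = 0.056), with median scaling (adjusted p = 0.15) and with only the groups compared (adjusted p = 0.075). In GRalpha that shift was -0.82 (adjusted p = 0.048), a call lost in the slide-blocked fit (-0.69, adjusted p = 0.072), with median scaling (adjusted p = 0.13), with no background correction (-0.52, adjusted p = 0.1), with no detection filter (adjusted p = 0.055) and without any of 6 arrays. In A477T it was -0.75 (adjusted p = 0.13), and -0.87 in the slide-blocked fit (adjusted p = 0.033). At 0 h A477T was 1.05 above GRalpha (adjusted p = 0.021), a call lost in the slide-blocked fit (0.86, adjusted p = 0.062), with median scaling (0.94, adjusted p = 0.14), with only the groups compared (adjusted p = 0.052) and without A477T 0 h replicate 3, GRalpha 0 h replicate 3 or GRalpha 0 h replicate 4 (0.87, 1.02 and 0.93).

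SPP1 codes for osteopontin, an acidic matrix protein that binds mineral and integrins, and it fell at 24 h in 3 alleles. In GRgamma probe ILMN_1651354 went from 9.02, 8.35, 7.94 and 8.51 at 0 h to 7.57, 7.16, 6.89 and 7.06 at 24 h. The fall was -1.29 (SE 0.3, adjusted p = 0.00096), and the falls in GRalpha and 30iiB were -1.19 (adjusted p = 0.0022) and -0.96 (adjusted p = 0.018), none with overlap. The 30iiB call was lost without 30iiB 0 h replicate 4 or 30iiB 24 h replicate 3 (adjusted p = 0.077 and 0.061) and with median scaling (-1.06, adjusted p = 0.06). In E773R the change was -0.92 (adjusted p = 0.061, and -0.96 with adjusted p = 0.031 in the slide-blocked fit) and in A477T -0.75 (adjusted p = 0.13). The dimmer SPP1 probe, ILMN_2374449, gave -0.93, -0.97 and -0.67 in GRgamma, GRalpha and 30iiB (adjusted p = 0.049, 0.039 and 0.22) and -1.04 in A477T (adjusted p = 0.04), so the probes differed in the call for 30iiB and A477T. At 0 h A477T held 9.6 ± 0.2 and GRalpha 8.33 ± 0.28 (SD, n = 4), a difference of 1.27 (adjusted p = 0.0074, and 1.15 with adjusted p = 0.13 with median scaling), and the dimmer probe gave 1.5 (adjusted p = 0.0041). None of the 12 SPP1 differences in response was called, with values from -0.59 to 0.44.

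**Figure D3:**
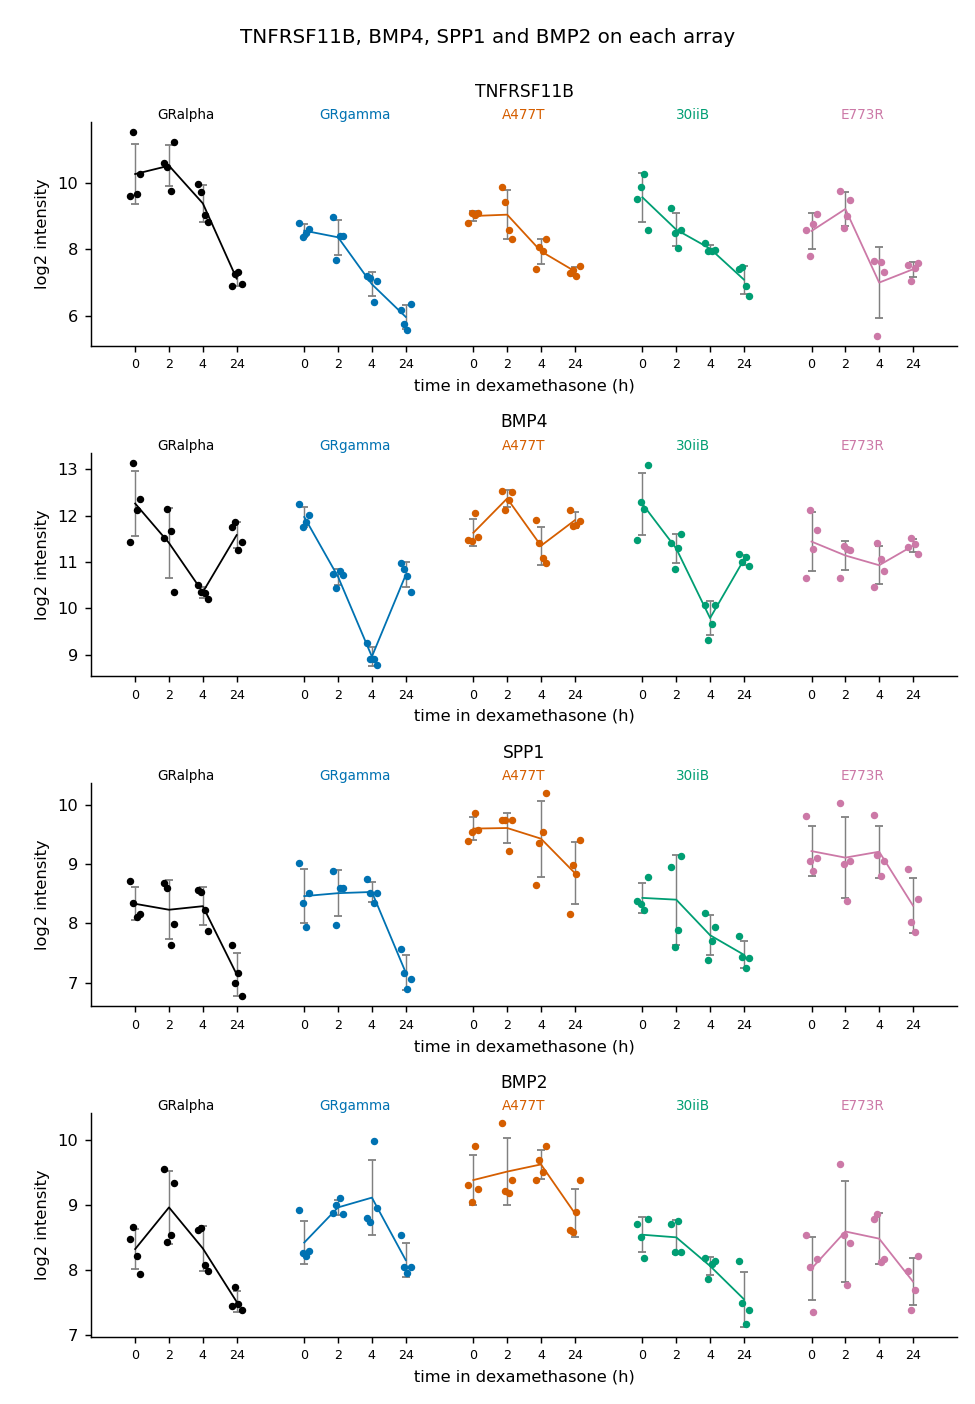
Log2 intensity of TNFRSF11B, BMP4, SPP1 and BMP2 (panels) on each of the 80 arrays (points), by allele (colour) and time in dexamethasone (in steps, not to scale), with group means joined by lines and grey bars for the SD of 4 arrays. TNFRSF11B is lower at 24 h than at 0 h in all 5 alleles, BMP4 has its lowest points at 4 h in GRgamma (8.77 to 9.25), and SPP1 in A477T starts at 9.6.

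ALPL and FAM20C act in mineralisation: the first codes for the alkaline phosphatase that removes the mineral inhibitor pyrophosphate, and the second for a kinase that phosphorylates secreted matrix proteins, osteopontin among them. ALPL, on probe ILMN_1701603, went in GRgamma from 9.57, 10.7, 10.27 and 9.47 at 0 h to 10.92, 11.75, 11.24 and 11.65 at 4 h and 11.7, 11.82, 11.33 and 11.69 at 24 h. The rises of 1.39 and 1.63 (SE 0.32, adjusted p = 0.002 and 5.6e-05) left no overlap, and the 4 h call was lost when only the groups compared were fitted (adjusted p = 0.058). In GRalpha ALPL was higher at 4 h only (1.09, adjusted p = 0.027), a call lost without any of 4 arrays (lowest value 0.8, without GRalpha 0 h replicate 4), with median scaling (adjusted p = 0.28) and with only the groups compared (adjusted p = 0.13). At 24 h it stood 0.01 above 0 h (adjusted p = 0.99). The GRalpha shift from 4 to 24 h was -1.08 (adjusted p = 0.016), lost without GRalpha 4 h replicate 2 (-0.98, adjusted p = 0.065) and with median scaling (adjusted p = 0.18). The E773R shift was -1.18 (adjusted p = 0.016), lost without E773R 24 h replicate 3 (-0.88, adjusted p = 0.18), E773R 4 h replicate 1 (adjusted p = 0.05) or replicate 2 (adjusted p = 0.072), with median scaling (-0.81, adjusted p = 0.58) and with only the groups compared (adjusted p = 0.26). In 30iiB that shift was -0.84 (adjusted p = 0.075), and -1.12 in the slide-blocked fit (adjusted p = 0.0027).

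At 24 h the GRgamma response of ALPL was larger than that of GRalpha by 1.62 (SE 0.45, adjusted p = 0.033). The difference had 95% bounds of 0.73 and 2.51 before adjustment, and its call was lost without any of 10 of the 16 arrays that enter it, with values from 1.42 to 1.63, with median scaling (1.87, adjusted p = 0.16) and with only the groups compared (adjusted p = 0.072). ALPL in A477T was at 0.85 at 24 h (adjusted p = 0.09, and 1.02 with adjusted p = 0.007 in the slide-blocked fit), and in 30iiB at -0.74 (adjusted p = 0.12, and -0.76 with adjusted p = 0.036). At 0 h 30iiB held 11.99 ± 0.48 and GRalpha 10.67 ± 0.71, a difference of 1.32 (adjusted p = 0.0098) whose call was lost without any of 4 arrays (lowest value 1.04, without GRalpha 0 h replicate 4), with median scaling (adjusted p = 0.17) and with only the groups compared (adjusted p = 0.27).

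FAM20C was called higher in 2 alleles, which, like A477T, started below GRalpha. In 30iiB probe ILMN_1712684 went from 8.72, 8.65, 8.76 and 8.63 at 0 h to 9.91, 10.23, 9.78 and 10.04 at 4 h and 9.81, 10.16, 10.11 and 10.39 at 24 h. The rises of 1.3 and 1.43 (SE 0.27, adjusted p = 0.00057 and 3.7e-05) and those of GRgamma, 1.2 and 1.44 (adjusted p = 0.002 and 3.9e-05), left no overlap with 0 h. The GRgamma call at 4 h was lost when only the groups compared were fitted (adjusted p = 0.086). In GRalpha the level was 10.18 ± 0.19 at 0 h and 10.68 ± 0.04 at 24 h (0.5, adjusted p = 0.25). All GRalpha arrays at 4 h and at 24 h lay above those at 0 h, without a call. In A477T the changes were 0.01 at 4 h and -0.43 at 24 h, and in E773R 0.38 and 0.12, also without a call. At 0 h GRgamma, 30iiB and A477T were below GRalpha by -1.51, -1.49 and -1.28 (SE 0.27, adjusted p = 0.00043, 2e-04 and 0.0018), without overlap. No difference in FAM20C response was called (values from -0.93 to 0.94). The dimmer FAM20C probe, ILMN_1683165, gave smaller values: 0.82 for GRgamma at 24 h (adjusted p = 0.0092) and 0.85 for 30iiB at 4 h (adjusted p = 0.022). It gave 0.58 for GRgamma at 4 h (adjusted p = 0.23, with overlap) and 0.52 for 30iiB at 24 h (adjusted p = 0.16), so those 2 calls rest on 1 probe. At 0 h it gave -0.79, -0.82 and -0.68 without a call (adjusted p = 0.17, 0.065 and 0.15).

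**Figure D4:**
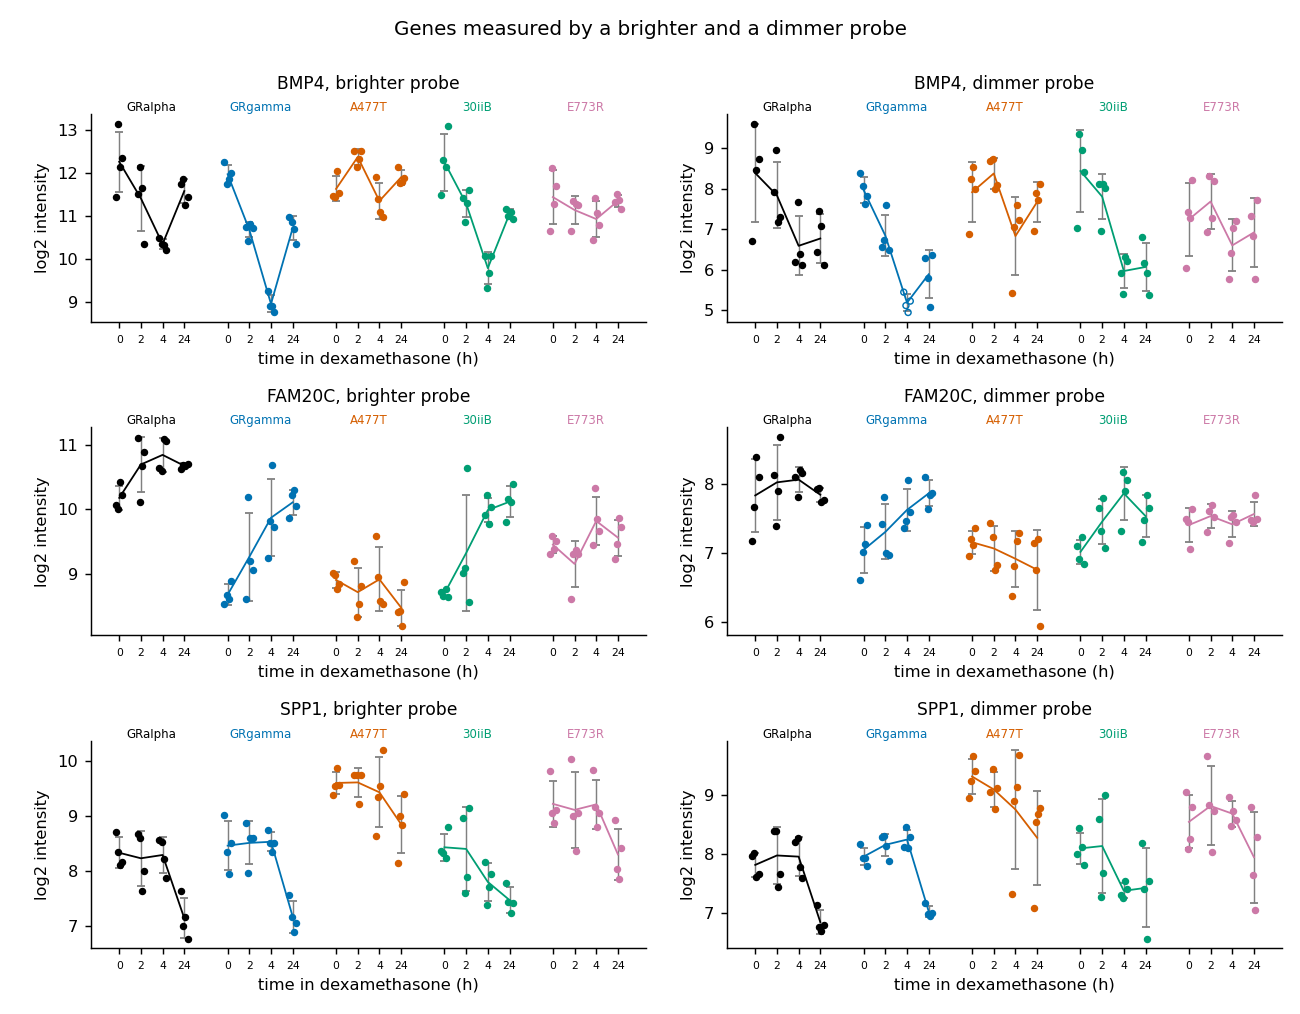
Log2 intensity of BMP4, FAM20C and SPP1 on the brighter (left) and dimmer (right) of their kept probes, for each of the 80 arrays (points) by allele (colour) and time in dexamethasone (in steps, not to scale), with means joined by lines and grey bars for the SD of 4 arrays. The brighter BMP4 probe returns from 4 to 24 h in GRalpha, GRgamma and 30iiB and the dimmer one stays low, while open points mark GRgamma at 4 h, where the dimmer probe was detected on 0 of 4 arrays.

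Across the 12 comparisons of a response with that of GRalpha, 13 calls fell on the 9 genes. In GRgamma 0 were called by limma at 2 h (0.091% of all probes) and 0 at 4 h (0.331%), with 1 and 2 genes at an unadjusted p under 0.05, and 2 were called at 24 h (1.8%), which were DCN and ALPL. In A477T 2 were called at 2 h (0.409%), 3 at 4 h (1.29%) and 2 at 24 h (4.57%). In E773R 0 were called at 2 h (0.104%, with 2 genes at an unadjusted p under 0.05), 1 at 4 h (0.383%) and 3 at 24 h (1.52%). In 30iiB 0 of 9 were called at each time by limma, against 0% of all probes at 2 h, 0.0455% at 4 h and 0.318% at 24 h, and 1, 2 and 2 genes had an unadjusted p under 0.05. The 30iiB values at 24 h ran from -1.33 for DCN to 0.93 for FAM20C, and a p that misses the threshold does not show that 30iiB acted like GRalpha. All 12 comparisons use the GRalpha 0 h arrays.

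**Figure D5:**
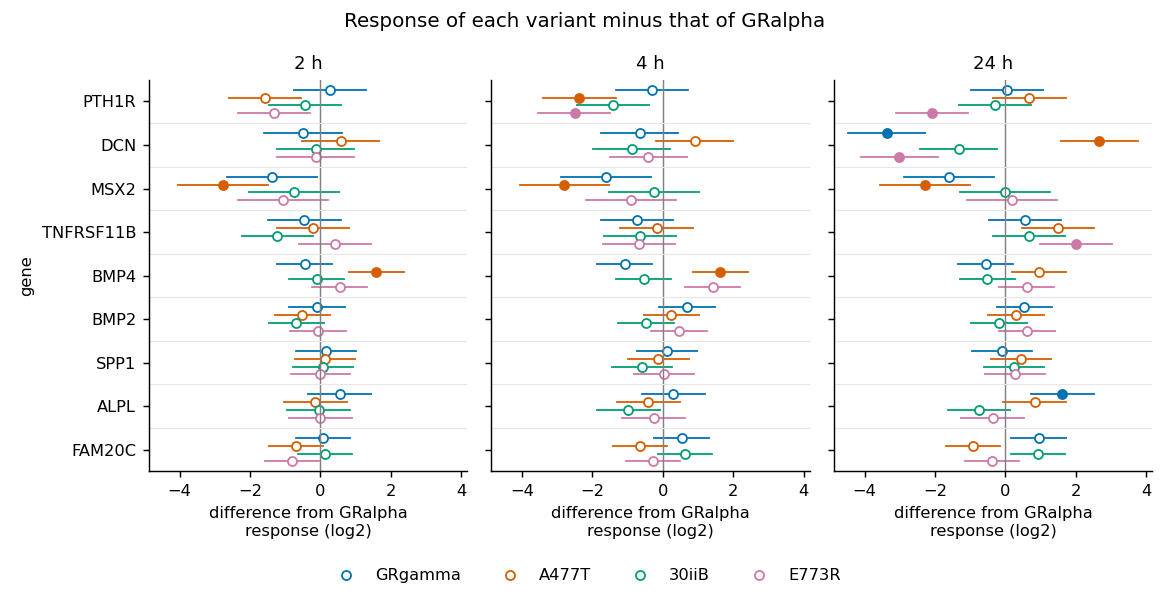
Response of GRgamma, A477T, 30iiB and E773R (colours) minus the response of GRalpha, in log2 with its 95% interval before adjustment (lines), for 9 bone genes (rows) at 2, 4 and 24 h (panels), with filled points where adjusted p was under 0.05. The 24 h panel holds DCN at 2.67 in A477T and at -3.37 and -3.01 in GRgamma and E773R, and the 3 filled MSX2 points are all A477T.

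Before hormone, 9 calls against GRalpha were made over the 4 alleles. A477T had 4 of them (2.16% of all probes), GRgamma 2 (0.429%), 30iiB 2 (1.34%) and E773R 1 (0.526%). TNFRSF11B and FAM20C gave 3 each, all lower than in GRalpha, and SPP1, BMP2 and ALPL gave 1 each, all higher. PTH1R, DCN, MSX2 and BMP4 gave 0, with PTH1R differences between -0.04 and 0.39. Between 4 and 24 h, which leaves out the 0 h arrays, GRalpha had 6 of the 9 genes called (10% of all probes), GRgamma had 3 (8.87%), 30iiB 3 (11.4%), A477T 2 (4.68%) and E773R 1 (3.74%). In A477T these were DCN and PTH1R, both higher. In GRalpha DCN and BMP4 rose and TNFRSF11B, SPP1, BMP2 and ALPL fell. In the slide-blocked fit 17 shifts were called in all, against 15. That fit lost PTH1R in 30iiB and BMP2 in GRalpha and added 4 falls: BMP2 in A477T, ALPL in 30iiB, TNFRSF11B in GRgamma (-1.09, adjusted p = 0.029, against -0.98, adjusted p = 0.081) and SPP1 in E773R (-1.16, adjusted p = 0.016, against -0.91, adjusted p = 0.077).

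Other genes of the same pathways were counted from lists, each gene by its brightest kept probe. In GRalpha at 24 h, 16.4% of all probes were called, 7.92% higher and 8.5% lower, and the counts of 0 to 2 in lists of 5 to 16 genes below are to be read against those shares. Of 5 measured small leucine-rich proteoglycans other than DCN, 1 was called at 24 h in GRalpha, and the median of the list was -0.02. That gene was OMD, which codes for osteomodulin (also osteoadherin), at 3.78 (SE 0.28, adjusted p = 4.4e-18). OMD rose by 2.61 in 30iiB (adjusted p = 1.4e-11), by 1.04 in E773R (adjusted p = 0.014) and at least 3.5-fold in GRgamma, where it was detected on 0 of 4 arrays at 0 h (adjusted p = 1.8e-08). In A477T, the allele with the largest DCN rise, OMD was at -0.42 (adjusted p = 0.54). Of 7 measured bone matrix proteins 1 was called in GRalpha at 24 h, SPARCL1, a relative of SPARC, which was detected on 0 of 4 arrays at 0 h and rose at least 3.2-fold (adjusted p = 3.9e-14; list median 0.03).

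Of 16 BMP ligands, receptors, SMADs and targets other than BMP2 and BMP4, 1 fell in GRalpha at 24 h, the ligand gene BMP6 (-2.08, SE 0.31, adjusted p = 2.5e-07; list median -0.24). BMP6 fell by 2.45 in GRgamma, by 1.63 in 30iiB and by 1 in E773R (adjusted p = 4.5e-09, 4.4e-05 and 0.045), and in A477T it was at -0.23 (adjusted p = 0.84). Of 5 measured BMP antagonists 1 fell in GRalpha, NOG, which codes for the BMP-binding protein noggin (-2.58, SE 0.3, adjusted p = 2.2e-10; list median -0.05). NOG also fell in GRgamma (-1.03, adjusted p = 0.012) and 30iiB (-1.19, adjusted p = 0.0026), and was at 0.5 in A477T and 0.1 in E773R (adjusted p = 0.45 and 0.98). Of 5 measured osteoblast transcription factors 0 were called at 24 h in GRalpha by limma, and 0 had an unadjusted p under 0.05 (list median -0.18). The one with the largest change was ATF4 at -0.31 (adjusted p = 0.74).

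Of 8 measured genes of parathyroid hormone signalling, 1 rose and 1 fell in GRalpha at 24 h (list median -0.16, all probes -0.02). PTH2R, the gene of a related receptor, was detected on 0 of 4 arrays at 0 h and rose at least 5.38-fold in GRalpha and at least 3.39-fold in 30iiB (adjusted p = 8.6e-21 and 6.8e-16), and in A477T it was detected on 0 of 4 arrays at both times. PRKACB, a catalytic subunit of protein kinase A, fell by 2.81 (SE 0.44, adjusted p = 4.6e-07). Of 5 measured osteoclast regulators 1 fell, SEMA3A, a semaphorin gene (-1.16, SE 0.31, adjusted p = 0.0046; list median -0.21), which was at -1.74 in A477T (adjusted p = 2.2e-05). Of 7 measured genes of mineralisation and phosphate handling 2 fell (list median -0.17), the phosphate transporter genes SLC20A1 (-1.78, SE 0.32, adjusted p = 1e-05) and SLC20A2 (-1.47, SE 0.33, adjusted p = 0.00039). In E773R SLC20A1 was at -0.73 (adjusted p = 0.25) and SLC20A2 at -1.56 (adjusted p = 0.00048).

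The genes whose 20 group means ran most like each member were found among 6627 genes that spanned at least 1 log2 unit, and they are given with Pearson's r across groups as a description. For DCN these were SLCO5A1 (0.934), NUDT9P1 (0.922) and IL1RL1 (0.911). For PTH1R they were CYP4B1 (0.926), NOL3 (0.913) and NSDHL (0.912), and for TNFRSF11B GMCL1 (0.899), SUN1 (0.873) and TLE4 (0.868). MSX2 ran most like F3 (0.887), TIPARP (0.862) and KCNA5 (0.855). ALPL ran most like CTNNBIP1 (0.89), MARCO (0.865) and UBE2D4 (0.844), and BMP2 like ZC3H12A (0.91), MAMDC4 (0.88) and COL27A1 (0.875). SPP1 ran most like ELAPOR1 (0.879), SP140 (0.876) and PRPF4 (0.872), and FAM20C like GPER1 (0.827), NCAM1 (0.818) and S100P (0.81). BMP4 had the lowest such values, with RNF217 (0.758), TNFSF9 (0.746) and IRS1 (0.742). Among the members themselves the highest r over the 20 groups were 0.73 for BMP2 with SPP1 and 0.72 for MSX2 with FAM20C, and the lowest was -0.63 for SPP1 with FAM20C. DCN means spanned 7.82 log2 units, with the highest at 12.97 in A477T at 24 h. Those of SLCO5A1, NUDT9P1 and IL1RL1 spanned 2.21, 1.34 and 1.71. The 20 groups are 5 alleles over the same 0 h to 24 h course and are not independent, so r carries no p.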

How the data were processed

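Gene expression was measured on 80 Illumina bead arrays of U2OS cells in 20 groups of 4 biological replicates, grouped by the sample labels. The deposited file holds, for every array, each probe's intensity and a detection p-value, not normalised per the file headers, and a deposited series matrix holds log2 values of the same arrays (median of a column 7.89 to 7.97), with background correction and scaling not stated. Intensities were background-corrected by normexp from the detection p-values (offset 16), quantile-normalised and taken to log2 in limma 3.58.1 (R 4.3.3, with the data.table package, version 1.17.8). The series matrix, which correlated with the intensities of its own array at 0.938 to 0.998, was an alternative. Median array intensity ran from 82 to 925.75.

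Of 25204 probes 19291 had a gene name in GEO's platform annotation, and 15392 of these were detected on at least 4 arrays. A single limma fit of 20 group means gave 36 two-sided contrasts (degrees of freedom were 60 residual and 5.95 prior), with Benjamini-Hochberg adjustment within each over all 15392 probes. A probe detected on 0 of 4 arrays of a group has a bound there: "at least" folds compare the bright group with the higher of each array's lowest detected level and the probe's own. The levels stand on log2 intensities, so small signals understate folds.

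All members and every kept probe were named. From each gene list, up to 3 genes with the largest change among those called in GRalpha at 24 h were named, or the one with the largest change where 0 were called, and 3 genes per member by likeness. The members and lists were chosen with earlier results of these data known.

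Equal replicate numbers were not treated as pairs: the mean correlation of their deviations was 0.06 (-0.02 for other numbers), and 0 of 15 contrasts had every pair over 0.1. By contrast the mean varied, from -0.17 for 30iiB at 24 h to 0.4 for 30iiB at 4 h. In E773R it was 0.37, 0.24 and 0.26 at 2, 4 and 24 h, so some pairing there is not excluded. Promoter windows came from RefSeq (GRCh38.p14) and motifs were counted in Python 3.11.15, with figures in matplotlib 3.10.9. Alternatives were no background correction, scaling to the same median, the series matrix, no detection filter, a detection p under 0.01, 1 probe a gene, a fit of only the groups compared, slide or replicate blocks, array weights and leaving out each array.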

Additional observations from a re-analysis of the deposited data

Results flagged for a closer look

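Among 180 groups of 4 arrays (9 genes, brightest probe), 13 held 1 array whose gap to the nearest other, as a share of the group's range, exceeded Dixon's 95% critical value, and chance gives about 1 in 20. DCN read 5.11 on GRalpha 2 h replicate 4 (others 5.75 to 5.82), 8.62 on 30iiB 2 h replicate 4 (others 6.15 to 6.27) and 9.92 on 30iiB 24 h replicate 1 (others 8.63 to 8.79). PTH1R read 9.22 on GRalpha 4 h replicate 2 (others 9 to 9.03). TNFRSF11B read 8.2 on 30iiB 4 h replicate 1 (others 7.94 to 7.98) and 5.41 on E773R 4 h replicate 2 (others 7.32 to 7.64). MSX2 read 8.32 on GRalpha 24 h replicate 3 (others 8.63 to 8.65). BMP2 read 8.92 on GRgamma 0 h replicate 1 (others 8.22 to 8.29) and 9.98 on GRgamma 4 h replicate 3 (others 8.74 to 8.95). BMP4 read 12.05 on A477T 0 h replicate 3 (others 11.45 to 11.53) and 10.66 on E773R 2 h replicate 1 (others 11.25 to 11.35). SPP1 read 9.22 on A477T 2 h replicate 3 (others 9.74 to 9.75), and FAM20C read 8.61 on E773R 2 h replicate 1 (others 9.31 to 9.37).

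Of 108 tests of whether a response differed from that of GRalpha, 13 were called (limma, adjusted p under 0.05 over all probes). A477T gave 1.59 and 1.63 for BMP4 at 2 and 4 h (adjusted p = 0.03 and 0.0097), -2.76, -2.8 and -2.28 for MSX2 at 2, 4 and 24 h (adjusted p = 0.016, 0.0061 and 0.018), -2.37 for PTH1R at 4 h (adjusted p = 0.0029) and 2.67 for DCN at 24 h (adjusted p = 0.00038). E773R gave -2.51 and -2.09 for PTH1R at 4 and 24 h (adjusted p = 0.0042 and 0.012), 2 for TNFRSF11B at 24 h (adjusted p = 0.02) and -3.01 for DCN at 24 h (adjusted p = 0.00018). At 24 h GRgamma gave 1.62 for ALPL (adjusted p = 0.033) and -3.37 for DCN (adjusted p = 1.3e-05). The size of the latter is only roughly measured, since DCN in GRgamma was detected on 0 of 4 arrays at 0 h and on 1 of 4 at 24 h.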

How the results depend on the processing

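Over the 9 genes, 49 calls were made in the 15 responses, 13 in the 12 differences from GRalpha, 9 at 0 h and 15 between 4 and 24 h. The 0 h count fell to 4 when only the groups compared were fitted, and the count between 4 and 24 h was 24 with the deposited series matrix and 24 with array weights; the causes were not tested. With 1 array left out the counts ran from 46 to 50, 9 to 15, 6 to 11 and 13 to 16, and the 9 came without GRalpha 0 h replicate 2 and the 6 without GRalpha 0 h replicate 4. The replicate block gave 53, 13, 9 and 16 calls, a block for each allele and number 57, 15 and 19 (0 h cannot be fitted), and slide as a fixed block 56, 14, 8 and 17. No called value changed sign in any alternative. Of 1023 repeats of called values under other settings 56 lost the call, and of 792 with 1 array left out 91 did. Over all probes the series matrix called 25824 responses against 13102, 3101 differences against 1673, 2546 against 687 at 0 h and 12899 against 5967 between 4 and 24 h. Array weights called 21922, 2924, 1233 and 14803, scaling to the same median called 3459 between 4 and 24 h, and the fit of only the groups compared called 453 at 0 h. The lowest detected level, log2 5.383 to 6.848 (median 5.731), limits DCN and PTH1R at 0 h.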
